A study of Mus musculus with 28 samples.

Results

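IAPEz proviruses with an IAPLTR1 end are the group of endogenous retroviruses described here, as 1551 separate integrants of the mouse genome. They were chosen by name from the deposited table of repeats: the merged element holds the internal part IAPEz-int and an LTR called IAPLTR1_Mm or IAPLTR1a_Mm, and no IAPLTR2. By name 1657 integrants met this rule, and 1551 of them had at least 16 reads summed over the 16 RNA-seq libraries. Of the others, 15 had 0 reads and 91 had 1 to 15. The table holds 3404964 transposable element (TE) integrants, of which 123880 had at least 16 reads. Since the proviruses had to pass that minimum and were read almost entirely after knockdown, their counts below describe integrants already seen to be transcribed somewhere in the series. The 13 proviruses just below the minimum, with 14 or 15 reads, had a median of 15 reads in the knockdown libraries and 0 in the control libraries. The 8 just above it, with 16 or 17 reads, had medians of 15.5 and 1.

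The study asked how KAP1, DNA methylation and TET enzymes act on single TE integrants in naive embryonic stem (ES) cells. It used J1 cells of the strain 129S4/SvJae, grown in medium with LIF and inhibitors of MEK and GSK3 (2i). The study compared 3 genotypes: wild type (WT), a triple knockout of the DNA methyltransferases Dnmt1, Dnmt3a and Dnmt3b (DNMT TKO), and a triple knockout of the dioxygenases Tet1, Tet2 and Tet3 (TET TKO). Cells of each genotype received either an empty hairpin vector (shEmpty) or a hairpin against Kap1 (shKap1), were selected with puromycin at 4 µg/mL and were collected 5 days after transduction. WT and DNMT TKO had 3 RNA libraries per hairpin and TET TKO had 2, all counted for reads that align to a single place. Each genotype is a single line, so genotype and line cannot be told apart. The methods say that the DNMT TKO and the TET TKO cells were obtained from different outside groups. The methods describe the RNA replicates as independent experiments, and the p-values measure the spread between them.

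Intracisternal A particle (IAP) elements are retroviruses without an envelope gene that multiply inside the cell, and they remain active in the mouse. A provirus is an internal coding part between a pair of long terminal repeats (LTRs). The LTR at the 5′ end holds the promoter, and just behind it lies a site where a transfer RNA, for IAP that of phenylalanine, binds to prime reverse transcription. In early embryos and ES cells, KRAB zinc finger proteins bind such elements and recruit KAP1 (also called TRIM28), which brings the histone methyltransferase SETDB1 that deposits H3K9me3. DNA methylation silences IAP in differentiated cells, and the TET enzymes oxidise 5-methylcytosine to 5-hydroxymethylcytosine (5hmC).

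The sequences below show what the names IAPLTR1_Mm and IAPLTR1a_Mm stand for, since the RNA results are also given by these names. Each is the start of the 5′ LTR of the most read provirus of its name, in the direction of the element, taken from the mm9 reference (NCBIM37), with each CpG in capitals. The first is at chr11:51483421-51483720 on the minus strand and the second at chr2:167108244-167108543 on the plus strand.
IAPLTR1_Mm: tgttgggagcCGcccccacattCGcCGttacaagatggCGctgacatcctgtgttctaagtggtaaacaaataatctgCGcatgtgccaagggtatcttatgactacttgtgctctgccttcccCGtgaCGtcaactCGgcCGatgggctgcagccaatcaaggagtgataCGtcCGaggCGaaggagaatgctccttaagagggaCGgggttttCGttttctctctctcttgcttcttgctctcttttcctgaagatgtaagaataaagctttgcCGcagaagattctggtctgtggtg
IAPLTR1a_Mm: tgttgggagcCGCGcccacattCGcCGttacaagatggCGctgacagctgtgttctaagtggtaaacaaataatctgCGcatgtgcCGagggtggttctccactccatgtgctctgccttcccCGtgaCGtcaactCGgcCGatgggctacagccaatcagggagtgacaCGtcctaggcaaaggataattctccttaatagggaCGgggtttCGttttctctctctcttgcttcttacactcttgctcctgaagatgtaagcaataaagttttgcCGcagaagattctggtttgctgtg
These 300-base stretches are 30 edits apart, and each holds 15 CpG. Among all 1551 proviruses 849 carried IAPLTR1a_Mm, 700 carried IAPLTR1_Mm and 2 carried both names.

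The LTRs at the ends of a provirus, which are copied from the same template when it inserts, were mostly alike. Sequence could be read for 1536 proviruses, and both LTRs were located in 1419. In 905 of these (63.8%) the 5′ and 3′ LTR were identical base for base, in 1310 they differed by at most 1%, and in 50 by over 2%. The 5′ LTR had a median length of 351 bases (quartiles 337 and 365) and a median of 20 CpG, with a range of 8 to 25. Between proviruses the sequence was less uniform: there were 1251 distinct 5′ LTR sequences, and the most common was shared by 10 proviruses. RNA reads that match several such copies were dropped before counting, so the level of each provirus is that of its unique stretches.

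The first bases of the 5′ LTR fell mostly into 3 classes, which were not set against the LTR names. Among the 1484 proviruses whose 5′ LTR start was located, the start TGTTGG was found in 1213 (81.7%), TGTGGG in 129 (8.69%) and TGTGAG in 93 (6.27%). The remaining 49 of them started otherwise. Median CpG and RNA values by class are set out below, with no test between the classes. The first 60 bases of the most read provirus of each class are given with the class letters in capitals. They lie at chr11:51483661-51483720 (minus), chr8:74756790-74756849 (minus) and chr5:6562135-6562194 (plus).
TGTTGG class: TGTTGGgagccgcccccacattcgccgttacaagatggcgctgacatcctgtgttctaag
TGTGGG class: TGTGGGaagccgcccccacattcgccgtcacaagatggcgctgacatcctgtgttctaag
TGTGAG class: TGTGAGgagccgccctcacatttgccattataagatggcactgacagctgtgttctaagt
LTRs of the TGTTGG class had a median of 20 CpG, those of the TGTGGG class 17.5 and those of the TGTGAG class 10.

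Right behind the 5′ LTR, a primer binding site of 18 bases was found in 1415 proviruses. The forms held by at least 30 proviruses are shown, since the site defines which transfer RNA primes the element, and capitals mark the bases that differ from the most common form.
Most common form: tggtgccgaattccggga
Form with AC: tggtgccgaaACccggga
Form with T and A: tggtgcTgaaAtccggga
Form with T and AC: tggtgcTgaaACccggga
Form with A: tggtgccgaaAtccggga
In this order they were held by 939, 228, 80, 59 and 33 proviruses. Counted from 1 at the 5′ end of the site, the form with AC differed from the most common one by T11A and T12C, that with T and A by C7T and T11A, that with T and AC by C7T, T11A and T12C, and that with A by T11A. The remaining 76 proviruses held 21 other forms. The most common form serves only as the reference for the capitals, and no form was compared with the sequence of a transfer RNA. The median log2 rise on knockdown in WT ran from 5.76 to 6.10 over the 5 forms shown.

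**Figure D1:**
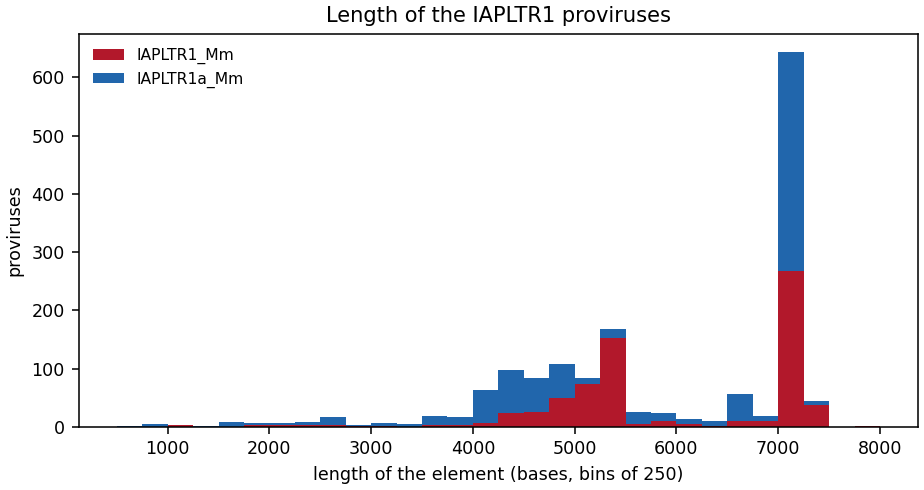
Histogram of the length of the IAPLTR1 proviruses in bins of 250 bases, stacked by LTR name, with the number of proviruses on the vertical axis. The bin from 7000 bases, with 643 proviruses, is the main peak and the bin from 5250 bases, with 168, a second one, which is mostly IAPLTR1_Mm; the 3 of 8000 bases or more and the 2 with both names are not drawn.

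In length the proviruses had a median of 6294 bases, with quartiles of 4824 and 7110 and a range of 638 to 14111. The histogram of length shows a main and a second peak. Complete IAP elements and elements with an internal deletion are both known. IAPLTR1 stood at both ends of 1444 proviruses and at 1 end of 107. By strand, 810 lay on the minus and 741 on the plus strand. They were spread over 23 chromosome sequences, with 125 on chromosome 1, 103 on chromosome 2 and 104 on chromosome X. Outside annotated genes lay 1177 of them. A further 246 lay in introns antisense to the gene and 88 in introns in its sense, while 38 overlapped an exon. The other 2 lay in introns of genes on both strands.

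The libraries held 18108431 to 29373696 reads on genes and 898152 to 1803819 on TEs. Replicate 1 stood apart from replicates 2 and 3 in all 4 groups of WT and DNMT TKO, so counts are also given without it. The 2 TET TKO shEmpty libraries differed most over genes, with a chi-square of 45.6 per degree of freedom against 1.68 to 15.3 in the other pairs of replicates. Trim28, which encodes KAP1, fell from 1752 ± 207 to 165 ± 21.9 CPM (reads scaled to 1000000 gene reads; mean ± SD, n = 3) in WT, and from 1835 ± 89.8 to 166 ± 3.84 in TET TKO (n = 2). In DNMT TKO it fell from 1869 ± 197 to 427 ± 91.5 (n = 3), so more Trim28 remained there, and the log2 fall was smaller by 1.28 ± 0.21 (SE, adjusted p = 0.0008). The 8 fixed ES cell markers, 7 of them tested, summed to 3414 to 3765 CPM in the shEmpty libraries and 2167 to 2750 in the shKap1 libraries. Markers of fibroblasts summed to 3.04 to 11.6 CPM, of primitive endoderm to 4.01 to 13.5 and of trophoblast to 4.04 to 24.3. Genes of the 2-cell-like state, 4 of 7 tested, rose from 11.3 to 22 CPM in WT shEmpty to 179 to 199 in WT shKap1, with 532 to 552 in TET TKO shKap1 and 53.2 to 123 in DNMT TKO shKap1. Whether these cells contribute to the RNA of the proviruses was not tested, and in bulk RNA more cells and more RNA per cell cannot be told apart.

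Knockdown of Kap1 raised the RNA of the IAPLTR1 proviruses from near zero to several percent of all reads on TEs. Summed over the group, WT shEmpty libraries held 75.9, 84.9 and 89.8 CPM, and WT shKap1 libraries 3637, 4485 and 4380. In DNMT TKO the sums were 59.3, 51.5 and 96 CPM with shEmpty and 6842, 5361 and 4678 with shKap1. In TET TKO they were 56.4 and 56.3 against 2738 and 2712. No control library came near a knockdown library in any genotype, and the ratio of the means was 49.9 in WT, 81.6 in DNMT TKO and 48.4 in TET TKO. As a share of TE reads, the group took 0.104% to 0.208% in the shEmpty libraries. In shKap1 libraries it took 5.42% to 6.3% in WT, 6.99% to 9.05% in DNMT TKO and 3.28% to 3.29% in TET TKO.

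**Figure D2:**
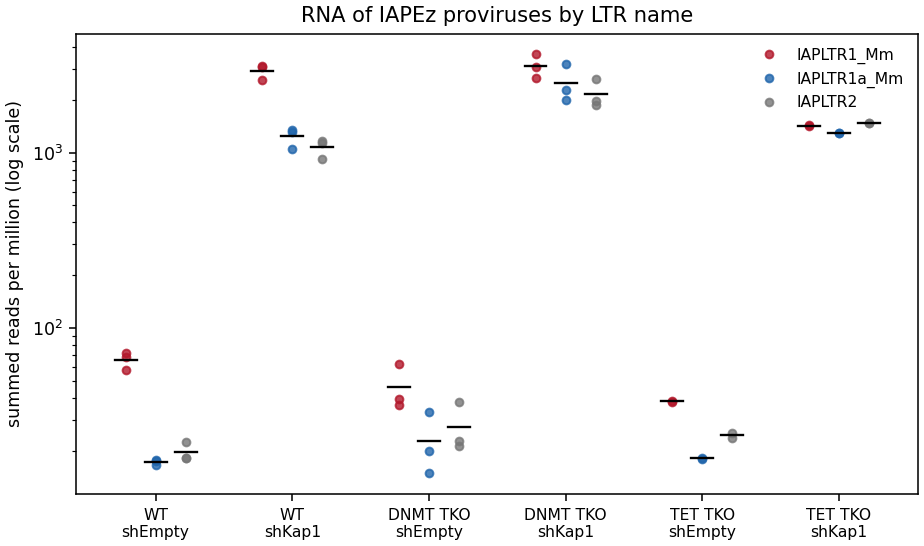
Summed CPM (log scale) over the proviruses of each LTR name in each library, by genotype and hairpin; points are libraries and bars are group means. In shKap1 libraries the IAPLTR1a_Mm and IAPLTR2 sums of DNMT TKO lie above those of WT, while the IAPLTR1_Mm sum of TET TKO lies below that of WT.

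Provirus by provirus, 1402 of the 1551 (90.4%) rose on knockdown in WT, beside 12.1% of all TEs tested. A call required an adjusted p below 0.05 in edgeR's quasi-likelihood test over all TEs and a change of at least 2-fold. In DNMT TKO 1484 (95.7%) rose, beside 15.0% of all TEs, and in TET TKO 1316 (84.8%), beside 14.7%. Falls were called for 0 proviruses in each genotype by edgeR, limma-voom and DESeq2 alike, beside 2.05%, 0.944% and 0.971% of all TEs. An edgeR fit of the compared groups alone called 1 fall in TET TKO. Only 71, 102 and 39 proviruses had at least 10 reads over the shEmpty libraries. For most of the group a fall could therefore hardly be called, so the contrast with all TEs is partly built in. At an unadjusted p below 0.05, edgeR gave 1 fall in WT, 0 in DNMT TKO and 1 in TET TKO. Every shKap1 library lay above every shEmpty library for 1447 proviruses in WT, 1512 in DNMT TKO and 1468 in TET TKO, beside 18.7%, 21.4% and 33.7% of all TEs. Without replicate 1 of WT and DNMT TKO, 1358, 1424 and 1323 rises were called.

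The median log2 change was 5.96 in WT (quartiles 4.96 and 7.05), 6.40 in DNMT TKO (5.38 and 7.44) and 5.58 in TET TKO (4.57 and 6.80). Over all TEs tested the medians were 0.23, 0.27 and 0.33. Many proviruses were silent without knockdown: 714 had 0 reads in all 3 WT shEmpty libraries, 526 in DNMT TKO and 760 in TET TKO. Set against a floor of 3 reads over the shEmpty group, as a lower bound for those proviruses, the medians became 4.78, 5.50 and 4.10. Medians of fitted changes by class share this dependence. The smallest rise called in WT was 2.17-fold. Rises were called in all 3 genotypes for 1261 proviruses, in 2 for 172, in 1 for 75 and in none for 43. The 43 had a median of 153 and a maximum of 751 reads over the 16 libraries, against a median of 295 for the 1261. The 149 proviruses not called in WT had a median of 56 reads. The part of read number in the calls was not tested.

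The RNA was unevenly spread over the proviruses. In WT shKap1 the median provirus was at 0.978 CPM (mean of 3 libraries), the 90th percentile at 5.4 and the highest at 90.2. The 10 highest held 16.8% of the summed level in WT, 8.12% in DNMT TKO and 12.3% in TET TKO. The highest 155, or 9.99% of the group, held 58.7%, 45.5% and 51.6%. Per kilobase of element the median shKap1 level was 0.167 CPM in WT, 0.321 in DNMT TKO and 0.134 in TET TKO. At least 1 read in every shKap1 library was found for 1458 proviruses in WT, 1523 in DNMT TKO and 1477 in TET TKO.

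**Figure D3:**
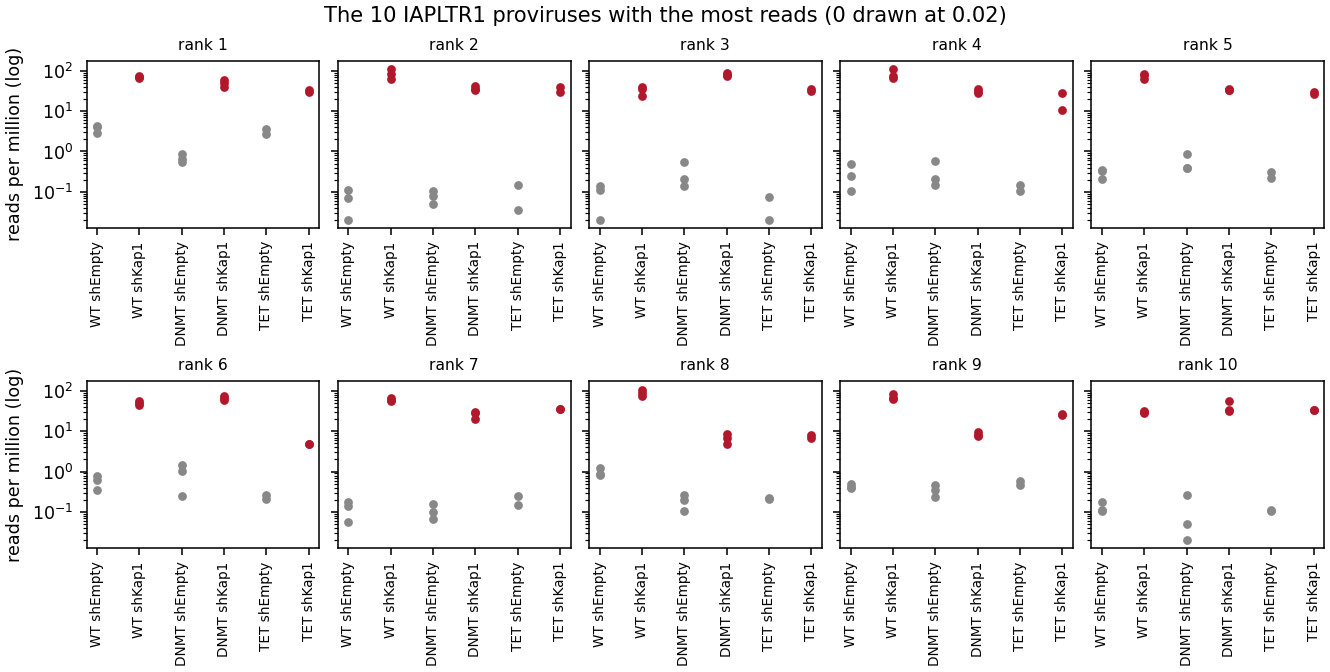
CPM (log scale) of the 10 IAPLTR1 proviruses with the most reads, 1 panel each in order of total reads, by genotype and hairpin; each point is a library, grey for shEmpty and red for shKap1, and libraries with 0 reads are drawn at 0.02. In every panel the shKap1 libraries of a genotype lie above its shEmpty libraries, while the order of the genotypes changes from panel to panel.

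The provirus with the most reads, 9534, lay outside genes at chr11:51478548-51483720. Its WT shEmpty libraries held 2.89, 4.34 and 4.1 CPM and its WT shKap1 libraries 76.1, 69.8 and 67. In DNMT TKO it went from 0.66, 0.552 and 0.848 to 50.4, 58.6 and 40.5 CPM, and in TET TKO from 2.64 and 3.57 to 33.8 and 29.9. It was therefore among the few read without knockdown, most of all in WT and TET TKO, and it rose by 4.22 ± 0.16 log2 (SE) in WT (adjusted p = 5.4e-144), 6.17 ± 0.19 in DNMT TKO and 3.36 ± 0.19 in TET TKO. The larger rise in DNMT TKO passed the test of the difference from WT (1.95 ± 0.23 log2, adjusted p = 5.1e-14) and went with a lower level in shEmpty (-2.46 ± 0.18, adjusted p = 2.2e-38).

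The second, chr9:121231496-121237601, lay antisense in an intron of Trak1, an adaptor for the transport of mitochondria. It was at 0.111, 0.0711 and 0 CPM in WT shEmpty and at 112, 61.1 and 84.5 in WT shKap1. With shKap1 it reached 41.6, 33.9 and 35.3 CPM in DNMT TKO and 39 and 30.3 in TET TKO, all below the lowest WT library. The third, chr16:33847324-33852674, antisense in an intron of the integrin gene Itgb5, had the opposite order. It reached 23.8, 39.1 and 35.5 CPM in WT shKap1 and 87.1, 77.9 and 72.4 in DNMT TKO, a difference of 1.27 ± 0.22 log2 (adjusted p = 3.8e-05). In TET TKO shKap1 it was at 32.3 and 35.7 CPM, inside the range of WT. Of the 10 most read proviruses, 9 carried IAPLTR1_Mm, and the exception was chr2:167108244-167115318, whose LTR is shown above. That provirus was at 31.8, 28.5 and 30.3 CPM in WT shKap1, 56.9, 33 and 31.3 in DNMT TKO and 33.7 and 34 in TET TKO, so its genotypes lay close to each other.

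The proviruses with the highest fitted rises had 0 reads in every control library of a genotype. Such fitted values depend on the prior count, so the folds given are lower bounds against the floor, which do not show these rises to be the largest. In WT the provirus at chr7:25363185-25369149, which overlaps an exon of Zfp575, was at 34.4, 38.1 and 40.8 CPM with shKap1, at least 936-fold higher than with shEmpty. That at chr12:66128173-66135294, outside genes, was at 12.6, 18.4 and 18.1 CPM, at least 406-fold higher. The provirus antisense in an intron of Arfgef2, an exchange factor for ARF proteins, at chr2:166637699-166642969 was at 12.5, 11.3 and 20.9 CPM, at least 370-fold higher. In all 3 the WT shKap1 libraries were well apart from 0.

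In DNMT TKO the highest fitted rises were those of chr7:27771473-27773576 (at least 403-fold higher), chr12:86741996-86749127 (at least 230-fold) and chr13:29972517-29978629 (at least 229-fold), all with IAPLTR1a_Mm and outside genes. The first is only 2104 bases long and was at 19, 12.1 and 17.4 CPM in DNMT TKO shKap1, against 4.93, 6.19 and 6.5 in WT. In TET TKO they were those of chr9:27604926-27606462, in the sense of Opcml, a cell adhesion gene (at least 205-fold), chr11:74353679-74358898, antisense in the Rap1 GTPase-activating gene Rap1gap2 (at least 182-fold), and chr9:21683631-21690693 outside genes (at least 166-fold). The one in Rap1gap2 was at 11 and 8.93 CPM in TET TKO shKap1 but at 61.3, 72.5 and 63.3 in WT shKap1, so a large rise did not mean a high level.

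The fitted knockdown changes of the genotypes were also ranked against each other among proviruses. Over the 1551 proviruses Spearman's rho was 0.32 between WT and DNMT TKO, 0.36 between WT and TET TKO and 0.31 between the mutants. These are descriptions across proviruses, which share libraries and family sequence and are not replicates. For proviruses with 0 shEmpty reads the fitted change depends on the prior count, so these values do not show how alike the responses were. The change in WT had a rho of 0.47 with the total reads of a provirus, 0.16 with length and 0.17 with the number of CpG in the 5′ LTR. The total is the value the proviruses were chosen by and consists mostly of shKap1 reads, so a positive rho with the change is built in.

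Genotypes were also compared within each hairpin, and the values are given by LTR name. In shKap1 libraries 516 proviruses were higher in DNMT TKO than in WT and 85 were lower (33.3% and 5.48%, beside 7.10% and 6.29% of all TEs), with a median log2 difference of 0.81 against -0.16 over all TEs. IAPLTR1a_Mm proviruses had a median of 0.96, with 332 higher and 13 lower, and IAPLTR1_Mm proviruses 0.56, with 184 higher and 72 lower. Without replicate 1 the calls became 346 higher and 108 lower and the median 0.50. With all libraries DESeq2 gave 322 higher and 64 lower. As noted above, more Trim28 remained in DNMT TKO after knockdown, and its part in these differences was not tested.

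TET TKO went the other way for IAPLTR1_Mm. In shKap1 libraries 106 proviruses were higher in TET TKO than in WT and 235 lower (6.83% and 15.2%, beside 5.71% and 1.91% of all TEs), with a median log2 difference of -0.30 (quartiles -1.01 and 0.35) against 0.00 over all TEs. DESeq2 gave 45 higher and 163 lower. Of the 235 lower calls, 196 were IAPLTR1_Mm proviruses, whose median was -0.72 with 33 higher. IAPLTR1a_Mm proviruses had a median of -0.02, with 73 higher and 39 lower. Trim28 was at nearly the same level in shKap1 libraries of both genotypes, with a log2 difference of 0.01 ± 0.16 (SE, adjusted p = 0.99). The WT libraries serve both comparisons.

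**Figure D4:**
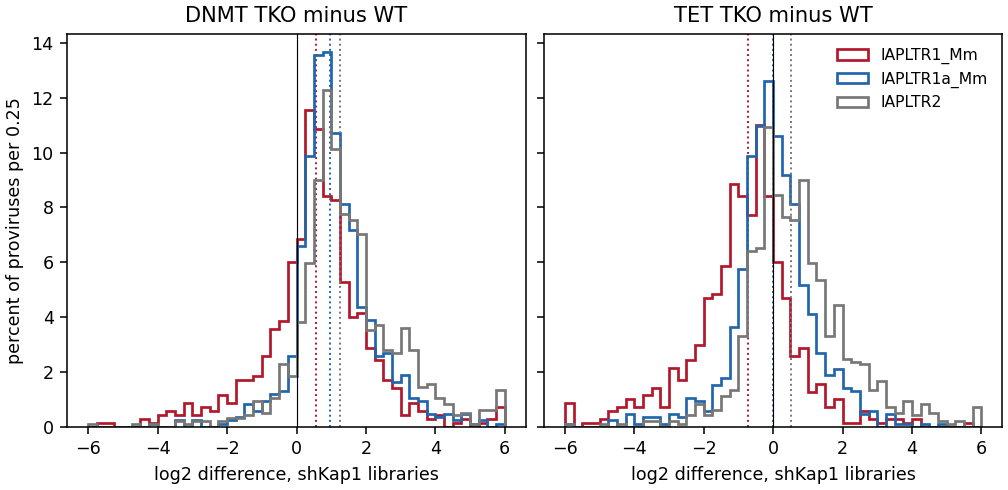
Histograms of the log2 difference between genotypes in shKap1 libraries, DNMT TKO minus WT on the left and TET TKO minus WT on the right, as percent of proviruses per 0.25 log2, for IAPLTR1_Mm, IAPLTR1a_Mm and IAPLTR2 proviruses. Values past 6 in either direction are drawn at 6, and dotted lines are medians, which for IAPLTR1_Mm, IAPLTR1a_Mm and IAPLTR2 are 0.56, 0.96 and 1.25 on the left and -0.72, -0.02 and 0.52 on the right.

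In the summed level, shKap1 libraries of DNMT TKO held 1.07 times the WT mean over IAPLTR1_Mm proviruses and 2.01 times over IAPLTR1a_Mm proviruses. By replicate, the IAPLTR1_Mm sums were 3626, 3090 and 2675 CPM in DNMT TKO against 2576, 3126 and 3060 in WT, which overlap. Replicate 1 was thus the highest in DNMT TKO and the lowest in WT. Those of IAPLTR1a_Mm were 3207, 2260 and 1994 against 1055, 1351 and 1313, which do not overlap. TET TKO held 0.487 and 1.05 times. The share of IAPLTR1_Mm in the summed RNA of the group needs no scaling between libraries. It was 70.9%, 69.8% and 70% in the WT shKap1 libraries, 53.1%, 57.8% and 57.3% in DNMT TKO and 52.3% and 52.3% in TET TKO. With shEmpty it was 76.7%, 80.4% and 80.5% in WT, 66.3%, 70.9% and 65.2% in DNMT TKO and 68% and 67.7% in TET TKO. In both hairpins every WT library lay above every mutant library. With shEmpty the order against DNMT TKO rests on 2 proviruses in exons, of Kcnh6 and Cdk5rap1, described below. Without them, a choice made after seeing the data, the shEmpty shares were 67.7%, 74% and 73.9% in WT. They were then 65.6%, 70.1% and 64.3% in DNMT TKO, which overlap with WT, and 64.3% and 62.6% in TET TKO, which stay below WT. With shKap1 they were then 69.6% to 70.7% in WT and 52.2% to 57.4% in the mutants, which do not overlap.

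The same order of the names was seen within both length classes compared, which are those with the most proviruses. Among proviruses of 4000 to under 6000 bases the median TET TKO difference in shKap1 libraries was -1.04 for the 346 IAPLTR1_Mm proviruses (20 higher, 130 lower) and 0.03 for the 306 IAPLTR1a_Mm proviruses (21 higher, 16 lower). Among those of 6000 to under 8000 bases it was -0.54 (13 higher, 62 lower, of 331) and -0.07 (38 higher, 21 lower, of 457). The DNMT TKO medians were 0.60 and 1.00 in the shorter class and 0.54 and 0.92 in the longer one.

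Values were also set out by the start of the LTR, with no test between the classes. Proviruses of the TGTGAG class, with the fewest CpG, had median rises of 4.85 log2 in WT, 6.06 in DNMT TKO and 4.82 in TET TKO, with 67, 91 and 58 of 93 called. Those of the TGTTGG class had 6.16, 6.50 and 5.79, with 1113, 1163 and 1079 of 1213 called. Those of the TGTGGG class had 5.36, 5.69 and 4.45, with 116, 121 and 87 of 129 called. With proviruses of 0 shEmpty reads at the floor, the medians were 2.68, 4.46 and 2.28 for TGTGAG, 4.98, 5.73 and 4.38 for TGTTGG and 4.04, 5.00 and 2.71 for TGTGGG. The TGTGAG class was read less, with a median of 75 reads over the 16 libraries against 278, and the part of this in the calls was not tested. In shKap1 libraries 33 TGTGAG proviruses were higher in DNMT TKO than in WT, with a class median of 1.21. The TGTGGG class had the lowest median for TET TKO against WT, -1.12, with 43 of 129 lower and 6 higher.

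Of the proviruses with the largest genotype differences in shKap1 libraries, chr2:177389544-177394490 was at 0.262, 0.173 and 0.213 CPM in WT and at 12.7, 12.9 and 12.9 in DNMT TKO. With shEmpty it had 0 reads in WT and 0.102, 0.207 and 0.347 CPM in DNMT TKO. It was higher in DNMT TKO with both hairpins, by 5.87 ± 0.31 log2 with shKap1 (SE, adjusted p = 5.9e-79) and at least 5.42-fold with shEmpty. In TET TKO it was at 1.2 and 1.33 CPM with shKap1, between the other genotypes. Also among the 3 highest fitted differences were chr7:144833352-144838657, at 5.14, 6.49 and 2.41 CPM against 0, 0.0866 and 0 in WT, and chr14:8184964-8190322, at 4.95, 4.19 and 5.97 CPM against 0.0524, 0.0433 and 0.107. The WT libraries held 2 reads in all at the first, under the floor of 3, so no size is given for it, and the order of the 3 is not shown.

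In the opposite direction, chr16:58650431-58655591 was at 2.57, 8.83 and 13.5 CPM in WT shKap1, at 0.24, 0.188 and 0.111 in DNMT TKO and at 0 and 0.103 in TET TKO. It had 0 reads in every shEmpty library, and its WT knockdown libraries were spread widely while staying above both mutants. The log2 difference was -5.53 ± 0.51 for DNMT TKO (adjusted p = 1.9e-09). The next were chr15:11985686-11992848 (-4.48 ± 0.36) and chr11:85099073-85106182 (-4.35 ± 0.44).

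Differences that set WT apart from both mutants were clearest at chr8:97140412-97145772, antisense in an intron of Rspry1. Its WT shKap1 libraries held 74.3, 90.1 and 106 CPM, those of DNMT TKO 8.45, 6.96 and 4.97 and those of TET TKO 8.01 and 6.93. The mutants overlapped with each other and lay far below WT, by 3.73 ± 0.17 log2 for DNMT TKO (adjusted p = 1.4e-107) and 3.59 ± 0.20 for TET TKO (adjusted p = 3.5e-71), in fits that share the WT libraries. With shEmpty WT was also the highest, at 0.889, 0.818 and 1.24 CPM against 0.203, 0.104 and 0.27 in DNMT TKO and 0.211 and 0.225 in TET TKO. The J1 genome is of another mouse strain than the reference, and whether the lines carry the same set of IAP copies was not tested.

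For TET TKO against WT with shKap1, the call of chr16:58650431-58655591 was lost when only the compared groups were fitted. The largest falls besides that one were at chr1:162746029-162751157 (13.6, 22.4 and 28.7 CPM in WT against 0.278 and 0.359 in TET TKO) and chr1:129788562-129793831. The latter lies antisense in an intron of Rab3gap1, which encodes a subunit of an activator of the GTPase Rab3. It was at 40.6, 52.6 and 48.3 CPM in WT, 39.5, 15.4 and 23.6 in DNMT TKO and 1.06 and 2.16 in TET TKO, so TET TKO alone lay far below (-4.88 ± 0.23 log2 from WT, adjusted p = 1e-74). The highest TET TKO differences were 4.21 ± 0.57 log2 at chr17:8408716-8416142, 4.07 ± 0.35 at chrX:97097273-97104041 and 4.00 ± 0.38 at chr9:114987145-114994325. At chr17:8408716-8416142 the levels were low, at 0.972 and 2.26 CPM against 0.105, 0.13 and 0 in WT.

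Without knockdown few proviruses were read, and few calls between genotypes were made. With shEmpty, 71 proviruses had at least 10 reads over the WT libraries, 102 over those of DNMT TKO and 39 over those of TET TKO. In DNMT TKO 36 were higher than in WT and 26 lower, beside 3.48% and 6.45% of all TEs, or 2.32% and 1.68% of the group. Which direction held the majority depended on the fit: limma-voom gave 10 higher and 17 lower, DESeq2 14 and 22, a fit without the read minimum 12 and 21, and leaving out WT shEmpty replicate 3 or DNMT TKO shEmpty replicate 3 gave 15 and 24 or 16 and 24. In TET TKO 9 were higher and 23 lower, beside 1.74% and 2.33% of all TEs, or 0.58% and 1.48% of the group. These became 7 and 14 with limma-voom, and 20 calls in all without TET TKO shEmpty replicate 1. IAPLTR1_Mm made up 26 of the 36, 20 of the 26, 7 of the 9 and 21 of the 23, and 45.1% of the group. WT shEmpty reads were found for 59.7% of IAPLTR1_Mm and 49.1% of IAPLTR1a_Mm proviruses, and the part of read number in these calls was not tested. Both median differences were 0.00.

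A lower level in the mutants was measured at chr6:28874175-28879353, antisense in an intron of Snd1, a nuclease-domain gene. It was at 0.611, 1.17 and 1.2 CPM in WT, at 0.0508, 0 and 0.0386 in DNMT TKO and at 0 in both TET TKO libraries, at least 18.3-fold lower in TET TKO. On knockdown in WT it did not rise, at 0.681, 0.866 and 0.8 CPM (-0.38 ± 0.36 log2, adjusted p = 0.61). At chr6:87352093-87359249 the WT libraries held 0.889, 1.28 and 1.31 CPM and the DNMT TKO libraries 0.0508, 0 and 0. In TET TKO, chr2:3400786-3406045 was higher than in WT, at 0.705 and 0.451 CPM against 0, 0.0356 and 0.0708.

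Whether the knockdown acted differently in the mutants was tested by the difference of the log2 changes. For DNMT TKO 21 proviruses rose more than in WT and 12 less, beside 1.33% and 0.473% of all TEs, or 1.35% and 0.774% of the group. These became 56 and 9 with limma-voom, 13 and 5 with a minimum of 100 reads, and 18 and 18 without DNMT TKO shKap1 replicate 1. For TET TKO 4 rose more and 10 less, beside 0.831% and 0.243%, or 0.258% and 0.645%. The 12 smaller rises in DNMT TKO were all of IAPLTR1_Mm proviruses, which also made up 14 of the 21 larger ones and 45.1% of the group. With so few reads in shEmpty libraries this test has a wide error for most proviruses.

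At chr4:46523959-46530511, antisense in an intron of Trim14, a gene of antiviral signalling, WT went from 0, 0.0356 and 0.106 CPM to 44.9, 45.9 and 54.3. DNMT TKO went from 0.0508, 0.069 and 0.424 to 5.43, 3.86 and 4.19 CPM. The shEmpty libraries overlapped and the shKap1 libraries did not, and the rise in DNMT TKO was smaller by 5.14 ± 0.72 log2 (adjusted p = 1.3e-09). Without DNMT TKO shEmpty replicate 3 the difference was -3.61 and passed no call (adjusted p = 0.17). At chr8:74752128-74756849, outside genes and of the TGTGGG class, WT went from 0.5, 0.391 and 0.425 to 66, 63.2 and 82.2 CPM, DNMT TKO from 0.355, 0.242 and 0.463 to 9.46, 7.66 and 8.05, and TET TKO from 0.458 and 0.601 to 26.9 and 24.6. Its rise was smaller than in WT in both mutants, by 2.77 ± 0.42 log2 in DNMT TKO (adjusted p = 3.6e-08) and 1.74 ± 0.39 in TET TKO (adjusted p = 0.002).

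The provirus at chrX:70187292-70194445, in the sense of Nsdhl, an enzyme of sterol synthesis, stood out in TET TKO. There it was at 0.388 and 0.413 CPM with shEmpty and 0.741 and 0.565 with shKap1, a change of 0.70 ± 0.44 log2 (adjusted p = 0.35). In WT it went from 0, 0.0356 and 0.0354 to 0.524, 0.65 and 1.33 CPM, and in DNMT TKO from 0.406, 0.207 and 0.193 to 5.96, 6.21 and 4.26. The shEmpty level in both mutants thus lay above that of WT (3.66 ± 0.72 log2 for TET TKO, adjusted p = 3.2e-05), and the rise in TET TKO was smaller than in WT, with a difference of -3.99 ± 0.81 (adjusted p = 0.00028).

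By length, the share of proviruses that rose in WT was 76.9% of the 26 under 2000 bases, 90% of the 80 from 2000 to under 4000, 85.8% of the 654 from 4000 to under 6000 and 94.7% of the 788 from 6000 to under 8000. All 3 of 8000 or more rose. The median log2 changes were 5.25, 5.13, 5.86, 6.17 and 4.97, or 3.03, 3.52, 4.60, 5.00 and 4.97 with proviruses of 0 shEmpty reads at the floor. The most read short provirus, chr5:7492598-7494774, is 2177 bases long. It went from 0.611, 0.783 and 0.354 to 44.2, 55.5 and 50.4 CPM in WT and from 0.211 and 0.263 to only 4.72 and 4.93 in TET TKO, while DNMT TKO reached 72.9, 65.3 and 60.6. By strand, 677 of 741 rose on the plus and 725 of 810 on the minus strand. Of proviruses with IAPLTR1 at both ends 1305 of 1444 rose, and of those with it at 1 end 97 of 107.

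By place in genes, 1067 of 1177 proviruses outside genes rose in WT (median 5.95), 225 of 246 antisense in introns (6.37), 78 of 88 in the sense of introns (5.47) and 30 of 38 that overlap an exon (5.73). With proviruses of 0 shEmpty reads at the floor, these medians were 4.66, 5.35, 4.67 and 5.01. Counting used the strand: TEs inside exons had a median of 106 reads when they lay on the strand of the gene and 2 when they lay opposite. Reads of an exon can therefore be counted for a provirus on the same strand, and their part was not tested. The exon class was set without regard to strand, and the proviruses in Lrrc33 and Lrrc8d lie antisense to the gene. The 38 proviruses in exons held 30.3% of the summed level in WT shEmpty but 5.02% in WT shKap1. Their WT shEmpty libraries summed to 23.9, 24.7 and 27.4 CPM, above the 5.48, 6.66 and 7.71 of DNMT TKO and the 7.44 and 10.2 of TET TKO. For proviruses outside genes the shEmpty sums overlapped, at 35.2, 40.6 and 42.2 CPM in WT, 35.9, 30.5 and 62.7 in DNMT TKO and 35.4 and 33.4 in TET TKO.

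The pair of proviruses in exons with the most WT shEmpty reads, picked after their values were seen, make up most of that WT sum, so their order restates it. The provirus at chr11:105889560-105894874, overlapping the potassium channel gene Kcnh6, was at 11, 10.9 and 11.5 CPM in WT shEmpty. It was at 0.609, 0.898 and 1.54 in DNMT TKO shEmpty and at 4.41 and 5.93 in TET TKO shEmpty. That at chr2:154179999-154185328, overlapping Cdk5rap1, which modifies mitochondrial tRNA, was at 9.88, 9.85 and 11.1 CPM in WT shEmpty, 0.609, 0.449 and 0.733 in DNMT TKO and 1.45 and 1.76 in TET TKO. Their WT libraries stood above those of both mutants. At the next, chr16:32148163-32153425 in Lrrc33, WT shEmpty libraries held 1.22, 2.28 and 2.62 CPM and those of DNMT TKO 2.54, 3.42 and 2.58, which overlap. The pair took 13.2% and 12.2% of all reads of the group in WT shEmpty. On knockdown in WT they reached 18.2, 16.1 and 17.7 and 17.2, 17.5 and 15.3 CPM. In DNMT TKO shKap1 the provirus in Kcnh6 was at 6.34, 4.04 and 5.01 CPM and that in Cdk5rap1 at 20.2, 35 and 22.1. The latter rose there by 5.43 ± 0.22 log2, more than in WT by 4.73 ± 0.27 (adjusted p = 1.9e-64). In TET TKO shKap1 they were at 3.15 and 3.75 and at 2.69 and 4.21 CPM, a change of -0.58 ± 0.23 in Kcnh6 (adjusted p = 0.063) and 1.10 ± 0.23 in Cdk5rap1 (adjusted p = 4e-05).

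Among the most read proviruses in exons besides that in Zfp575, chr4:41401768-41407033 overlapped the kinesin gene Kif24 and went from 0.111, 0 and 0.142 to 18.6, 36.6 and 20.1 CPM in WT. The third, chr16:4743411-4750484, overlapped an exon of 5730403B10Rik and went from 0, 0.0356 and 0.0708 to 24.7, 24 and 21.5 CPM. Both were apart from 0 in every knockdown library, with 8.19 ± 0.69 log2 (adjusted p = 5.4e-06) and 9.01 ± 0.30 (adjusted p = 4.8e-185).

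Genes whose span held an IAPLTR1 provirus were also counted. Of 344 such genes 259 were tested, and 65 (25.1%) rose in WT, 62 (23.9%) in DNMT TKO and 49 (18.9%) in TET TKO. Over all 20321 genes tested 10.8%, 10.1% and 8.05% rose. Falls were called for 20, 9 and 16 of the 259, beside 6.54%, 2.42% and 4.46% of all genes. With the provirus in the sense of the gene, 19, 25 and 13 of 67 tested genes rose, and with it antisense 49, 42 and 37 of 198. Of 163 tested genes whose start lay within 10000 bases of a provirus they do not hold, 49 (30.1%), 51 (31.3%) and 42 (25.8%) rose. These shares describe the genes found and were not tested against genes matched in level or length.

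Among the genes whose span held a provirus and that had at least 200 reads, the highest fitted rise in WT was that of Sectm1a, which encodes a secreted and transmembrane protein and holds the provirus chr11:120931227-120936220 antisense in an intron. It was at 0, 0.0356 and 0 CPM in WT shEmpty and 3.67, 6.06 and 6.24 in WT shKap1 (adjusted p = 1.3e-08), with 3.94, 2.12 and 2.41 in DNMT TKO shKap1 and 1.25 and 1.03 in TET TKO shKap1. Trpm2, a cation channel gene with an antisense provirus at chr10:77413477-77420630, went from 0, 0.0711 and 0.0708 to 5.98, 13 and 12.2 CPM in WT, a rise of 7.47 ± 0.48 log2 (adjusted p = 2.3e-09). In shKap1 it was at 17.2, 17.9 and 18.5 CPM in DNMT TKO and 1.2 and 2.16 in TET TKO, so the genotypes did not overlap. Mmp1b, a matrix metalloproteinase gene with a provirus in its sense at chr9:7371139-7375527, went from 0.0555, 0 and 0 to 0.681, 0.736 and 0.48 CPM (adjusted p = 0.0013).

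The largest falls among those genes were those of Pdzrn4 (-2.76 ± 0.57 log2, adjusted p = 0.0011), which holds a pair of antisense proviruses, of Gm15514 (-2.69 ± 0.24, adjusted p = 5.2e-08) and of Crtac1, which encodes a cartilage protein (-2.65 ± 0.32, adjusted p = 2.6e-06). Gm15514 fell in WT from 3.83, 4.09 and 3.68 to 0.629, 0.433 and 0.746 CPM. In DNMT TKO it was at 5.94, 7.08 and 7.63 with shEmpty and 8.5, 5.5 and 6.23 with shKap1, ranges that overlap.

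Of the fixed list of genes for IAP silencing, 23 of 24 were tested. In WT Trim28 was the 1 that fell by the rule. Suv39h1, an H3K9 methyltransferase gene, was the 1 that rose, by 1.21 ± 0.11 log2 (adjusted p = 1.1e-07). Its relative Suv39h2 changed by -0.73 ± 0.06, below the 2-fold limit. The others, among them Setdb1 and the genes for HP1 proteins, passed no call. Between genotypes with shEmpty, Dnmt1 was at 156 ± 0.729 CPM in DNMT TKO against 490 ± 20 in WT, Dnmt3a at 7.65 ± 0.996 against 63 ± 11 and Dnmt3b at 25.2 ± 6.79 against 156 ± 31.6. Tet1 was at 233 ± 19.7 in TET TKO against 654 ± 81.6 and Tet2 at 91.1 ± 1.4 against 408 ± 65.4, whereas Tet3, at 13.8 ± 0.667 against 13.9 ± 2.86, does not mark the line in these counts. On knockdown Dnmt3a rose by 1.15 ± 0.13 log2 and Tet3 by 1.80 ± 0.14 in WT.

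KAP1 regions of WT cells from ChIP-seq overlapped all 1551 proviruses, and 953 of the 968 IAPLTR2 proviruses. H3K9me3 regions overlapped 1529, and the set of them listed as dependent on KAP1 overlapped 1500. The 22 proviruses without an H3K9me3 region were bound by KAP1 as well and had a median rise of 4.96 log2 in WT, with 21 called, against 5.97 for the others. The 4615 KAP1 regions on the proviruses had a median width of 1026 bases. For ChIP-seq the paper states no filter for unique reads, so reads may have been placed on another copy than their source. How many proviruses would keep a region from unique reads alone was not tested.

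**Figure D5:**
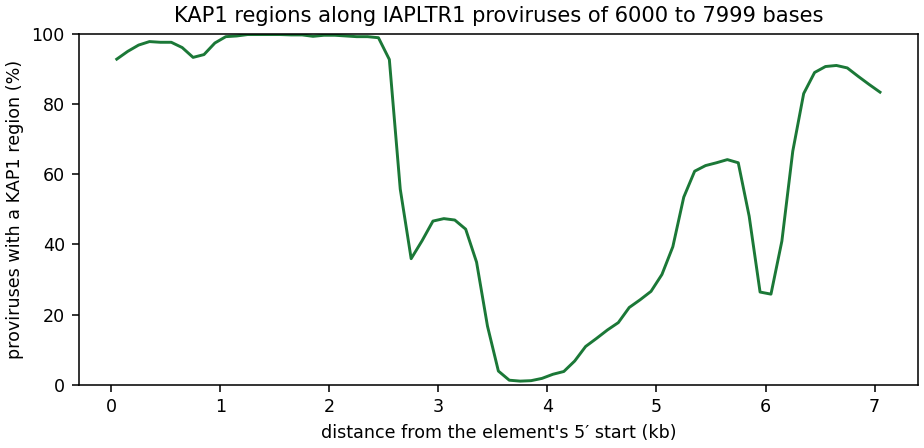
Percent of proviruses of 6000 to under 8000 bases with IAPLTR1 at both ends that are covered by a KAP1 region, by distance in kb from the 5′ start of the element. Coverage is above 90% from the start to 2.5 kb and falls to 1.04% at 3750 bases. It rises to 64.1% at 5650 bases, falls to 25.8% at 6050 and reaches 90.9% at 6650.

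Values along the element are for the 768 proviruses of 6000 to under 8000 bases with IAPLTR1 at both ends. A KAP1 region covered 92.7% of them at 50 bases, in the 5′ LTR, and 99.7% at 1250 bases, early in the internal region. It still covered 98.8% at 2450 bases, then 41% at 2850 and 1.3% at 3650. A second stretch covered 64.1% at 5650 bases, coverage fell to 25.8% at 6050, and it was 88.9% at 6450 and 83.3% at 7050. Positions count from the 5′ start in elements that differ in length, so those past 6000 bases mix different distances from the 3′ end. The plot of KAP1 along the element shows these stretches. Reads that match several copies can lower coverage where copies are alike, so the gaps cannot be told apart from stretches that short reads cannot place.

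Peaks of H3K4me3, found at active promoters, and of H3K27me3, a mark of Polycomb repression, were rare on the proviruses in WT cells. H3K4me3 overlapped 24 proviruses in both replicates, and H3K27me3 overlapped 6 and 5 in single replicates and 0 in both. Of the 24, 20 had reads in WT shEmpty. The median over the 24 was 0.206 CPM there against 0.0118 for the others, and together they held 41.9% of the summed WT shEmpty level. The pair in Kcnh6 and Cdk5rap1 held 25.7% and the other 22 held 16.2%, with a median of 0.132 CPM. An exon was overlapped by 4 of the 24, the pair among them. Median changes of the 24 on knockdown were 2.68 log2 in WT (17 called), 3.86 in DNMT TKO (21 called) and 2.42 in TET TKO (13 called). Those of the other 1527 proviruses were 5.97, 6.41 and 5.63. With proviruses of 0 shEmpty reads at the floor, these were 2.67, 3.60 and 1.79 against 4.81, 5.53 and 4.14. In TET TKO 9 of the 24 were lower than in WT with shEmpty and 15 with shKap1, with a median of -2.45 for the latter. In DNMT TKO 5 were lower than in WT with shEmpty. Of the whole group 1.48%, 15.2% and 1.68% were lower in these comparisons. The 24 were chosen by peaks in WT cells, so a lower level in another line is favoured by the choice.

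5hmC over the KAP1 regions of the proviruses was measured in WT cells with each hairpin by hMeDIP-seq (immunoprecipitation with an antibody to 5hmC). A second set of libraries was deposited, but its labels do not settle which condition each belongs to, so it was not used here. That leaves 1 library per condition (n = 1) and no test. The log2 change of 5hmC over input on knockdown had a median of 1.12 over 1550 proviruses, with quartiles of 0.87 and 1.37 and a range of -0.85 to 2.38. With library totals taken over H3K4me3 regions the median was 0.73, so its size depends on the scaling. IAPLTR2 proviruses, scaled as in the first value, had a median of 0.96 (n = 948). IAPLTR1_Mm proviruses had a median of 1.01 and IAPLTR1a_Mm proviruses 1.19, and the 24 with H3K4me3 had 0.49. Those of 4000 to under 6000 bases had 0.99 and those of 6000 to under 8000 bases 1.22. Across proviruses the 5hmC change and the fitted RNA change in WT had a rho of 0.01 (n = 1550). This value does not show that they are unrelated, since 5hmC rests on 1 library per condition. The paper also states no filter for unique reads for hMeDIP-seq, so values of single proviruses may include reads of other copies. For the 714 proviruses without reads in WT shEmpty, the fitted RNA change also depends on the prior count. The paper reports a positive correlation for KAP1-bound IAPEz integrants, a set not limited to IAPLTR1.

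IAPEz proviruses that carry IAPLTR2 are the most like group in the table. Of 968 IAPLTR2 proviruses 695 (71.8%) rose in WT, 926 (95.7%) in DNMT TKO and 769 (79.4%) in TET TKO, with medians of 4.85, 5.92 and 5.45 log2. Their shEmpty libraries had 0 reads for 609, 441 and 589, and with these at the floor the medians were 2.81, 4.47 and 3.30. With shKap1 402 of them were higher in DNMT TKO than in WT and 22 lower (median 1.25), and 166 were higher in TET TKO and 17 lower (median 0.52). IAPLTR1_Mm proviruses thus had the lowest medians of the 3 LTR names in both comparisons, IAPLTR2 the highest, and IAPLTR1a_Mm lay between. In the summed level, TET TKO over WT with shKap1 was 0.487 for IAPLTR1_Mm, 1.05 for IAPLTR1a_Mm and 1.37 for IAPLTR2. These values describe the names, and the differences between them were not tested.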

How the data were processed

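RNA-seq, ChIP-seq and hMeDIP-seq files were used as deposited. Per the file headers and the submitters' processing notes, the authors aligned reads to mm9 (HISAT2 2.0.1 and Bowtie2 2.2.1 are named). For RNA-seq they kept unique reads and made gene counts with featureCounts (reverse-stranded). TE counts were made with bedtools 2.25 over a RepeatMasker track with LTRs and internal parts merged. The paper states no filter for unique reads for ChIP-seq or hMeDIP-seq. H3K4me3 peaks, deposited with a score, came from MACS 1.4. H3K27me3 peaks also carry a score, and the methods name MACS for marks other than H3K9me3, for which SICER is named. KAP1 and H3K9me3 regions are those over which the authors deposited hMeDIP counts. Here, gene and TE counts were tested in R 4.3.3 with edgeR 4.0.16 (TMM factors from genes, robust quasi-likelihood fit of all 6 groups, Benjamini-Hochberg adjustment over 123880 TEs or 20321 genes), after a minimum of 16 reads summed over 16 libraries. Calls were made at an adjusted p under 0.05 with a change of 2-fold or more. limma 3.58.1 (voom) and DESeq2 1.42.0 were alternatives, with other filters and scalings, a replicate block (for host genes added after seeing the data) and each library left out. The SE of a log2 change was calculated back from the change and the p-value of its edgeR test, so it restates that p-value. CPM are reads scaled by the TMM-adjusted gene totals. 5hmC is log2 of hMeDIP over input reads with 1 added, for at least 10 input reads. Scripts were tested on simulated data.

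The proviruses named were the 10 with the most reads; the 3 largest fitted rises of each knockdown comparison among those called with at least 200 reads; the 3 largest differences in each direction of each other comparison among those called with at least 100 reads; and the 3 with the most reads in exons. Host genes named were the 3 largest rises and 3 largest falls in WT among those called with at least 200 reads. The proviruses, lists and rules were chosen with earlier results of these data known. Replicate numbers are shared by the labels. Over genes, same-numbered libraries deviated together between WT hairpins (correlations of 0.118 to 0.274) and between the shEmpty groups of WT and DNMT TKO (0.135 to 0.317). Over TEs none of the 6 pairs of groups had every correlation above 0.1, and the proviruses were fitted without the block. Counting noise of TEs with few reads also lowers such correlations, so they do not show that the libraries are unpaired. Counts with the block are given with the effects of the processing. Alignments to the reference, which is of another strain (C57BL/6J), cannot show proviruses that only J1 cells carry.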

Additional observations from a re-analysis of the deposited data

Results flagged for a closer look

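The difference between genotypes in the knockdown effect was tested directly, and the calls it gave are listed here. For DNMT TKO minus WT it was higher for 21 proviruses and lower for 12, and for TET TKO minus WT higher for 4 and lower for 10. These are 1.35%, 0.774%, 0.258% and 0.645% of the group, beside 1.33%, 0.473%, 0.831% and 0.243% of all TEs, so the first is at the share of all TEs and the third below it. No explanation was tested for any of them. Of the 12 values given below, 8 lost their call under at least 1 alternative, as listed with the effects of the processing.

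The highest DNMT TKO values were 7.00 log2 at chr4:68621831-68628928 (adjusted p = 7.2e-10), 6.29 at chr19:53002544-53006699 (adjusted p = 0.0039) and 5.91 at chr18:29173279-29180381 (adjusted p = 0.0027). All 3 had 0 reads in DNMT TKO shEmpty, so these fitted values depend on the prior count and are no bounds. At the first, WT went from 0.611, 0.747 and 0.778 to 0.891, 2.08 and 1.71 CPM, and DNMT TKO from 0 to 2.16, 1.32 and 1, at least 37.1-fold higher. The shKap1 ranges of the genotypes overlapped there, and the shEmpty ranges did not. The lowest values were -5.14 at chr4:46523959-46530511 in Trim14 (adjusted p = 1.3e-09), -5.11 at chr3:67918379-67923518 in Schip1 (adjusted p = 0.0047, with 0 reads in WT shEmpty) and -4.87 at chr5:106153173-106158414, which overlaps an exon of the anion channel gene Lrrc8d (adjusted p = 0.0066). The provirus in Lrrc8d went from 0, 0.0356 and 0 to 1.62, 4.03 and 3.78 CPM in WT and from 0, 0.138 and 0.0386 to 0.384, 0.611 and 0.26 in DNMT TKO.

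For TET TKO the highest were 3.01 at chr16:32148163-32153425 in an exon of Lrrc33 (adjusted p = 0.00014), 2.96 at chr17:69679685-69686774 (adjusted p = 0.00098) and 2.72 at chr9:110872953-110878370 in Lrrc2 (adjusted p = 0.019). The first went from 1.22, 2.28 and 2.62 to 8.91, 6.37 and 4.48 CPM in WT and from 0 and 0.113 to 1.85 and 1.18 in TET TKO, so TET TKO was lower with both hairpins. The second had shKap1 levels of 1.21, 1.6 and 1.65 CPM in WT and 1.76 and 1.64 in TET TKO, and shEmpty levels of 0.722, 0.676 and 0.92 against 0.106 and 0.113. The lowest were -5.06 at chr8:121569097-121576256 in the cadherin gene Cdh13 (adjusted p = 0.047), -3.99 at chrX:70187292-70194445 in Nsdhl (adjusted p = 0.00028) and -3.87 at chr4:120608762-120615866 in the zinc finger gene Zfp69 (adjusted p = 0.0071). In Cdh13, shKap1 levels were 4.09, 4.46 and 4.8 CPM in WT and 0.185 and 0.308 in TET TKO.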

How the results depend on the processing

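The counts of proviruses that rose on knockdown stayed within 1.5 times their values of 1402, 1484 and 1316 under every alternative run, and no value changed sign. Leaving out 1 library gave 1331 to 1385 in WT, 1436 to 1486 in DNMT TKO and 1165 to 1253 in TET TKO. The test of the difference of knockdown effects was less stable. Its 33 DNMT TKO calls became 65 with limma-voom and 18 with a minimum of 100 reads, and 24 to 36 with 1 library left out, and its 14 TET TKO calls 9 to 15. With shEmpty, the 62 DNMT TKO calls became 27 with limma-voom (10 higher, 17 lower), 36 with DESeq2 (14 and 22) and 33 without the read minimum (12 and 21), against 36 higher and 26 lower, so the majority direction turned, and 39 to 69 with 1 library left out (39 without WT shEmpty replicate 3). The 32 TET TKO calls became 21 with limma-voom and 20 to 29 with 1 library left out (20 without TET TKO shEmpty replicate 1). With shKap1, DESeq2 gave 386 in place of 601 for DNMT TKO and 208 in place of 341 for TET TKO, and leaving out 1 library 493 to 651 and 261 to 348. The cause of these shifts was not tested.

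The log2 ratio of summed levels was 5.64 in WT (6.09 without proviruses in exons; 5.58 to 5.73 with 1 library left out), 6.35 in DNMT TKO (6.18 to 6.67) and 5.60 in TET TKO (5.59 to 5.60). The TET TKO value became 5.67 without TMM, 5.36 with scaling by TE counts and 5.78 without proviruses in exons. The median 5hmC change of 1.12 became 0.73 with totals over H3K4me3 regions and 0.94 per region. In the order knockdown in WT, DNMT TKO and TET TKO, difference of knockdown effects, shEmpty and shKap1 (each DNMT TKO, then TET TKO, against WT), the counts of calls with the replicate block became 1419, 1497, 1336, 34, 15, 61, 30, 606 and 348. Over genes the block gave 65, 62 and 48 rises among genes that hold a provirus, in place of 65, 62 and 49. It ended 2 calls of named proviruses: chr1:162746029-162751157 in DNMT TKO shEmpty (adjusted p = 0.18) and chr7:14884597-14889217 in TET TKO shEmpty (0.051). Of 57 named results 41 kept their call under all alternatives, and 16 lost it under at least 1. For the difference of knockdown effects these were chr3:67918379-67923518, chr4:46523959-46530511, chr5:106153173-106158414 and chr19:53002544-53006699 in DNMT TKO and chr4:120608762-120615866, chr8:121569097-121576256, chr9:110872953-110878370 and chr16:32148163-32153425 in TET TKO. With shEmpty they were, beside the 2 above, chr3:67918379-67923518 and chr5:96914518-96919707 in DNMT TKO and chr2:177389544-177394490 and chr11:74353679-74358898 in TET TKO. With shKap1 they were chr7:144833352-144838657 in DNMT TKO (DESeq2, adjusted p = 0.088) and chr16:58650431-58655591 in TET TKO (with the groups compared alone, adjusted p = 0.18). Without replicate 1 of WT and DNMT TKO, chosen after seeing the data, the counts in that order were 1358, 1424, 1323, 25, 12, 46, 31, 454 and 360. Depth sets the lowest level that can be read: 3 reads over a shEmpty group are 0.0403 CPM in WT, 0.0402 in DNMT TKO and 0.0545 in TET TKO, and intervals of single counts cover counting error only.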

Other observations

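The primer pair named for IAPEz in the study's ChIP and RT-qPCR assays was searched in the proviruses with sequence, on both strands. The forward primer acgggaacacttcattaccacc was found without a mismatch in 3 of 1536 IAPLTR1 proviruses and in 213 of 943 IAPLTR2 proviruses, and within 2 edits in 19 of the IAPLTR1 proviruses. The reverse primer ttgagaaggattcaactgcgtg was found in 47 and 496, and within 2 edits in 732 of the IAPLTR1 proviruses. Of the primers used for glucosylation-based measurement of 5hmC, ctcgctcgctgcctaaag was found in 0 of 1536 and 48 of 943, and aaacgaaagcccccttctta in 0 and 29. Within 2 edits the last of these was found in 16 of the IAPLTR1 proviruses and the primer before it in 0. The paper also reports RT-qPCR of IAPEz-LTR1 and IAPEz-LTR2 apart, and primers under names other than IAPEz were not searched. All matches are to the reference sequence of another strain, and amplification was not tested.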
